A study of Mus musculus with 2 samples.

Results

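Fc receptors are surface proteins that bind the constant part of antibodies, and CD300 proteins are related immunoglobulin-like receptors of myeloid cells that bind mainly lipids. The 10 genes described here are the IgG receptor genes Fcgr1, Fcgr2b, Fcgr3 and Fcgr4, the signalling chain gene Fcer1g, the CD300 genes Cd300a, Cd300lb, Cd300ld and Cd300lf, and Pirb, of a paired immunoglobulin-like receptor. They were taken by symbol from tables of 24346 genes, and all 10 were present. By their established function 6 are activating (Fcgr1, Fcgr3, Fcgr4, Fcer1g, Cd300lb and Cd300ld) and 4 are inhibitory (Fcgr2b, Cd300a, Cd300lf and Pirb).

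RNA sequencing was done on Gr-1+ CD11b+ cells, a sorted myeloid fraction, of BALB/c mice given 3% dextran sulfate sodium (DSS), an agent that causes colitis, for 6 days. Both libraries came from cells stimulated for 2.5 hours, the control without ATPγS (n = 1) and the other with 100 µM ATPγS (n = 1). ATPγS is an ATP analogue that resists hydrolysis. Both groups share the strain, the DSS treatment and the stimulation time. The series title ties the comparison to a myeloid metabolism that depends on the ATP-gated channel P2X4. The number, age and sex of the mice, and whether cells were pooled, are not stated in the labels. With 1 library per group there was no replicate error and no test, so "higher" and "lower" compare these 2 libraries only.

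Activating receptors of this kind mostly lack a signalling motif of their own and associate with a small adaptor chain, the product of Fcer1g (the FcR gamma chain) or of Tyrobp (DAP12). The adaptor carries an immunoreceptor tyrosine-based activation motif (ITAM), which Src-family kinases phosphorylate and the kinase SYK then binds. Inhibitory receptors carry an immunoreceptor tyrosine-based inhibition motif (ITIM) in their own cytoplasmic tail, which recruits the phosphatases SHP-1 (Ptpn6), SHP-2 (Ptpn11) or SHIP-1 (Inpp5d). On myeloid cells the balance between both kinds sets how strongly antibody complexes trigger phagocytosis and the oxidative burst.

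The ITIM of the inhibitory genes could be seen in the coding sequences. The division into activating and inhibitory genes was set beforehand by established function, so the search describes it and does not test it. In the coding sequences of GENCODE M21 (GRCm38), an ITIM after the last hydrophobic stretch was found in 4 of the 4 inhibitory genes and in 0 of the 6 activating ones. Fcgr2b had 1, Cd300a 2, Cd300lf 2 and Pirb 3. An ITAM was found in Fcer1g alone among the 10 genes, and the other activating genes had neither motif. Of 9270 genes with such a stretch, 27.7% had at least 1 match to the ITIM, 7.94% had 2 or more and 2.41% had a match to the ITAM, so a match to the ITIM by itself is common. The runs below show the coding strand with 12 bases on either side of each motif, 5′ to 3′, with the codons of the motif in capitals. The ITIM codons are what separates the groups compared here. The coordinates are those of the printed runs. The run of the Fcer1g ITAM lies at chr1:171229877-171230084 on the minus strand, across exons 4 and 5. The run of the Fcgr2b ITIM lies at chr1:170961059-170961100 on the minus strand in exon 8. Those of Cd300a lie on the plus strand at chr11:114899834-114901140 (exons 6 and 7) and chr11:114901135-114901176 (exon 7), and those of Cd300lf on the minus strand at chr11:115117636-115117677 (exon 6) and chr11:115117100-115117141 (exon 7). The last ones of Pirb lie on the minus strand in exon 15, at chr7:3712774-3712815 and chr7:3712684-3712725.
Fcer1g ITAM: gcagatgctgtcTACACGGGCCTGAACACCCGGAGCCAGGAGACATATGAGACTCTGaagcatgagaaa
Fcgr2b ITIM: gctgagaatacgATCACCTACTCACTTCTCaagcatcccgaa
Cd300a first ITIM: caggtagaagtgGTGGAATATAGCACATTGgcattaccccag
Cd300a last ITIM: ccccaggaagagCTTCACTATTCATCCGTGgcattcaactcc
Cd300lf first ITIM: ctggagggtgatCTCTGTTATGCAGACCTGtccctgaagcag
Cd300lf last ITIM: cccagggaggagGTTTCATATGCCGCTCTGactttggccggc
Pirb middle ITIM: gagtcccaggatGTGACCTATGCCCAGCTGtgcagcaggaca
Pirb last ITIM: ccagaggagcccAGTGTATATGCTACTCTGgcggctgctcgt

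The labelled identity of the cells was checked first. The neutrophil genes S100a8 (20604 FPKM in the control and 22410 with ATPγS) and S100a9 (13776 and 14942 FPKM) were among the highest values, and Itgam, of CD11b, stood at 112 and 144 FPKM. Of the Gr-1 antigen genes, Ly6c1 (134 and 166 FPKM) and Ly6c2 (70.9 and 63.7 FPKM) were present, while Ly6g was not analysed here. FPKM is a level per unit of transcript length and of sequenced fragments, so levels of different genes can be set side by side. The depth, read from the smallest steps of the values, was about 2132000 fragments for control cells and 2848000 for ATPγS-treated cells. Counting intervals below are 95% intervals from estimated reads and cover counting error only. Genes averaging 10 FPKM or more over both libraries had a median log2 ratio of ATPγS to control of -0.13, so a log2 ratio between -0.13 and 0 has no settled direction.

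Fcer1g was by far the most abundant of the 10 transcripts, at 1691 FPKM in the control (counting interval 1624 to 1759) and 1586 FPKM with ATPγS (1530 to 1643). It ranked 43rd of all genes in the control and 40th with ATPγS. Fcgr3, of the low-affinity activating receptor FcγRIII, followed at 203 FPKM (187 to 220) and 217 FPKM (203 to 232). Cd300lf, of an inhibitory receptor also called CLM-1, stood at 196 FPKM (183 to 211) and 216 FPKM (204 to 229), so Fcgr3 and Cd300lf could not be ranked by counting error in either library. The same held for Cd300lb, of an activating receptor that uses DAP12, at 141 FPKM (132 to 151) and 136 FPKM (128 to 145), and Pirb, of a receptor for MHC class I, at 132 FPKM (124 to 140) and 135 FPKM (128 to 142).

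The lower part of the order changed between the libraries. Fcgr2b, of the only inhibitory IgG Fc receptor of the mouse, stood at 100.2 FPKM in the control (93.2 to 107.6), above Cd300a, of an inhibitory receptor for phospholipids, at 79.7 FPKM (74.3 to 85.5). With ATPγS Fcgr2b stood at 72.7 FPKM (67.6 to 78.2) and Cd300a at 77.8 FPKM (73.1 to 82.7), with overlapping intervals. Likewise Fcgr4, of an activating receptor for IgG2 subclasses, was above Cd300ld, of an activating receptor of the CD300 family, in the control, at 44.7 FPKM (37.1 to 53.5) against 28.8 FPKM (24.5 to 33.6). Both stood at 30.3 FPKM with ATPγS, with intervals of 24.9 to 36.6 for Fcgr4 and 26.5 to 34.5 for Cd300ld. Fcgr1, of the high-affinity IgG receptor typical of macrophages, was the least abundant at 3.81 FPKM (2.36 to 5.82) and 2.74 FPKM (1.67 to 4.23), from about 21 and 20 reads.

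**Figure D1:**
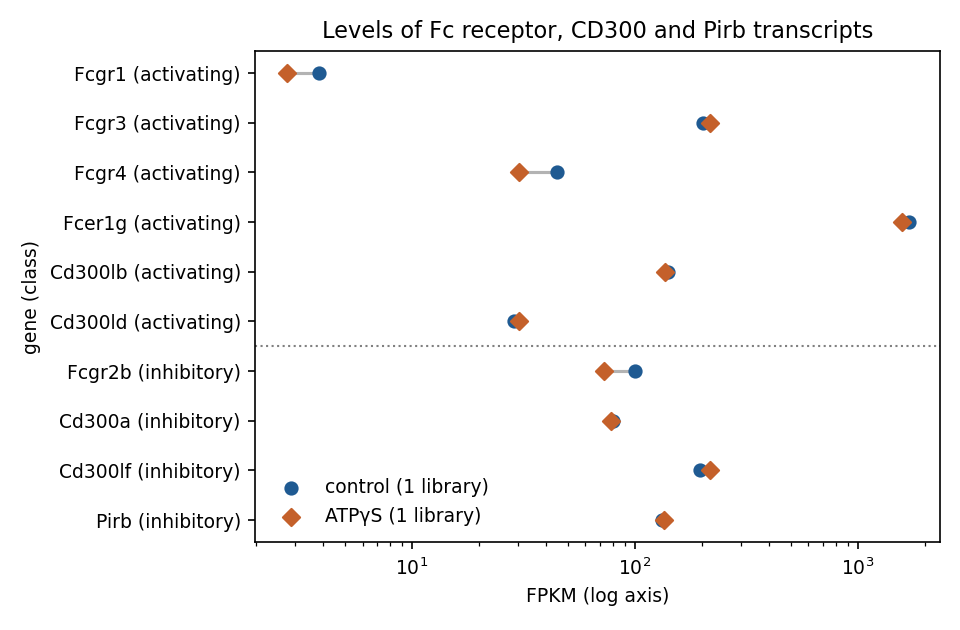
Level of each of the 10 transcripts in the control (circles) and ATPγS (diamonds) libraries, in FPKM on a log axis, with 1 library per group; activating genes are above the dotted line and inhibitory genes below it. Fcer1g (1691 and 1586 FPKM) stands apart from the rest, and the markers are visibly separated for Fcgr1, Fcgr4 and Fcgr2b.

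None of the 10 genes reached a 2-fold difference in either direction. Here and below, genes are counted on the log2(FPKM + 1) scale, on which low genes pass 2-fold less easily than by their FPKM, while a fold given for 1 gene is taken from FPKM without the 1 added. At a mean of 1 FPKM or more, which all 10 passed, 13.8% of 18311 genes were higher with ATPγS by 2-fold or more and 9.91% were lower by as much. At a mean of 20 FPKM or more, which 9 of the 10 passed, these shares were 2.30% and 5.0% of 3480 genes, so 0 of 9 lies close to the background. At a threshold of 1.5-fold the count of members was also 0 in both directions, where 24.1% of the 18311 genes were higher and 20.7% lower. The 1.5-fold shares of genes averaging 20 FPKM or more are not given here, so this count is read as no result about the members.

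The largest differences of the abundant members were in 2 neighbouring IgG receptor genes, Fcgr4 and Fcgr2b. Fcgr4 was 1.47-fold lower with ATPγS (44.7 and 30.3 FPKM, log2 ratio -0.55), with a counting interval of the ratio of ATPγS to control of 0.515 to 0.881 from about 120 and 108 reads. Fcgr2b was 1.38-fold lower (100.2 and 72.7 FPKM, log2 ratio -0.46), with an interval of 0.655 to 0.804 from about 757 and 734 reads. If the shortest coding transcript of Fcgr2b is assumed in place of the longest, the reads are about 231 and 225 and the interval is 0.604 to 0.880. Neither is extreme among genes of its level, since 18.4% of genes averaging 20 FPKM or more had a lower log2 ratio than Fcgr4 and 23.2% a lower one than Fcgr2b. After rescaling to a median log2 ratio of 0 the values were -0.42 for Fcgr4 and -0.33 for Fcgr2b.

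Fcgr3, which lies in the same cluster, did not share that difference. Its ratio was 1.07 (log2 ratio 0.10, interval 0.961 to 1.19), and the ratio of Fcgr4 to Fcgr3 was 0.220 in the control and 0.140 with ATPγS. That ratio was 0.634 times its control value, with a counting interval of 0.479 to 0.840. Fcgr2b, Fcgr4 and Fcgr3 occupy chr1:170958617-171064935 (GRCm38) with no other protein-coding gene between them, a span of 106 kb, and Fcer1g lies further along the chromosome at chr1:171229572-171234365. Fcgr1 is on another chromosome (chr3:96282909-96293969), and its ratio of 0.718 has an interval of 0.367 to 1.38 that includes no difference.

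The shared chain and the CD300 genes differed by little. Fcer1g was 1.07-fold lower (log2 ratio -0.09, interval 0.889 to 0.989), and after rescaling to a median of 0 its log2 ratio was 0.04. Cd300lf was 1.10-fold higher (log2 ratio 0.14, interval 1.01 to 1.21), the only member with an interval above 1. Cd300lb (ratio 0.965, interval 0.883 to 1.06), Cd300ld (1.05, 0.858 to 1.30) and Cd300a (0.976, 0.888 to 1.07) had intervals that include no difference. The 4 CD300 members lie in a span of 244 kb at chr11:114890041-115133992, Cd300a at one end and Cd300lf at the other. Pirb, at chr7:3711409-3720391, had a ratio of 1.03 (interval 0.947 to 1.11).

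In all, 3 of the 10 counting intervals lay below 1 (Fcgr4, Fcgr2b and Fcer1g) and 1 lay above it (Cd300lf). Of all genes with an estimate and a mean of 1 FPKM or more, 25.0% had an interval below 1 and 24.6% one above 1. At a mean of 20 FPKM or more the shares were 40.5% and 22.1%, and the 3 below and 1 above all belong to the 9 members at that level. These counts are read as no result about the members.

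**Figure D2:**
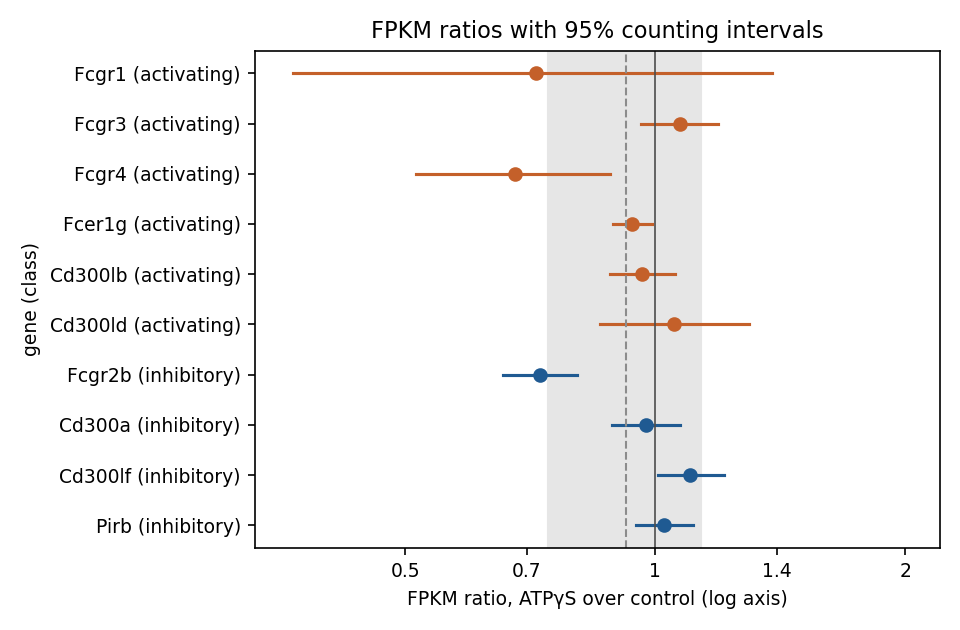
Ratio of FPKM in the ATPγS library to the control for each gene (points, log axis) with its 95% counting interval (lines); orange marks activating and blue inhibitory genes, the dashed line the median and the grey band the middle 50% of genes averaging 20 FPKM or more. The points of Fcgr4 (0.678), Fcgr1 (0.718) and Fcgr2b (0.726) lie left of the band and the other 7 lie inside it. The band was computed on the log2(FPKM + 1) scale. On that scale Fcgr1, which averages less than 20 FPKM, has a value of -0.36, inside the lower quartile of -0.43.

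The log2 ratios of activating and inhibitory genes overlapped. The 6 activating genes had a median log2 ratio of -0.07, from -0.55 (Fcgr4) to 0.10 (Fcgr3), with 4 below 0. The 4 inhibitory genes had a median of 0.00040, from -0.46 (Fcgr2b) to 0.14 (Cd300lf), with 2 below 0. The difference of the medians, activating minus inhibitory, was -0.07, with a counting interval of -0.23 to 0.09 that includes 0. All genes averaging 20 FPKM or more had a median of -0.12 with quartiles at -0.43 and 0.18. After rescaling to a median of 0, the medians were 0.06 for the activating and 0.13 for the inhibitory genes, with 2 of 6 and 1 of 4 below 0.

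The balance within each family was then compared as a ratio of FPKM, which no rescaling of a library can change. For the IgG receptors, the summed activating genes Fcgr1, Fcgr3 and Fcgr4 came to 251 FPKM in the control and 250.2 FPKM with ATPγS. Over Fcgr2b this gave a ratio of 2.51 in the control (counting interval 2.27 to 2.78) and 3.44 with ATPγS (3.12 to 3.79). The ratio was thus 1.37-fold higher with ATPγS, with an interval of 1.19 to 1.58. In the FPKM as deposited the activating sum was near constant and Fcgr2b was lower. Unlike the ratio, this reading depends on the scaling, and after rescaling to a median of 0 the log2 ratio of Fcgr2b was -0.33. The sum also joins Fcgr3, at 1.07 times its control value, with Fcgr4, which was 1.47-fold lower. Within the sum, Fcgr3 over Fcgr2b went from 2.03 to 2.98 (1.47-fold, interval 1.27 to 1.71), while Fcgr4 over Fcgr2b was 0.446 and 0.417 (0.934-fold, 0.707 to 1.23). The interval of the latter includes no difference and also a 1.23-fold higher ratio.

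The CD300 balance lay the other way round and differed less. Cd300lb and Cd300ld summed to 170.1 FPKM in the control and 167 FPKM with ATPγS, against 276 and 294 FPKM for Cd300a and Cd300lf. The activating to inhibitory ratio was 0.616 (0.568 to 0.668) and 0.566 (0.528 to 0.607), a 0.919-fold difference with an interval of 0.826 to 1.02 that includes no difference. Within the family, Cd300lb over Cd300lf was 0.719 and 0.630 (0.875-fold, 0.771 to 0.994), and Cd300lb over Cd300a was 1.77 and 1.75 (0.989-fold, 0.870 to 1.12). Fcer1g exceeded the summed IgG receptors that use its chain 6.72-fold in the control (6.19 to 7.30) and 6.34-fold with ATPγS (5.90 to 6.82).

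**Figure D3:**
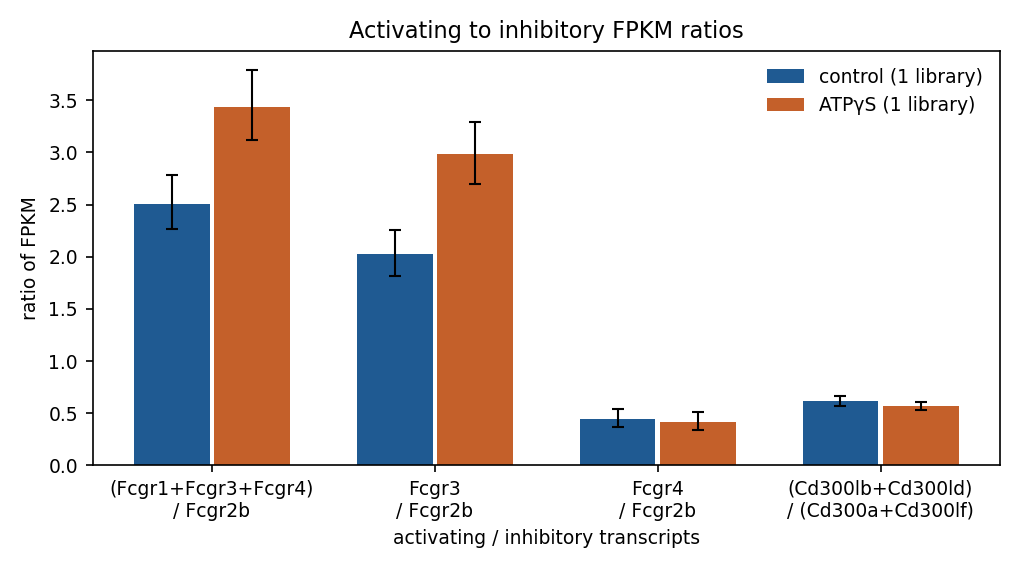
Ratios of FPKM of activating to inhibitory transcripts in the control (blue) and ATPγS (orange) libraries, with 95% counting intervals as error bars and 1 library per group. The ratio of summed Fcgr1, Fcgr3 and Fcgr4 to Fcgr2b is 2.51 and 3.44 with intervals that do not overlap, and the CD300 ratio is 0.616 and 0.566 with intervals that do.

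Near copies limit some of these values. Of the words of 50 bases in the longest coding transcript of Pirb, 37.3% occur in another gene, among them Pira2 and Lilra6. For Fcgr3 12.8% occur in another gene, which is Fcgr2b. For Fcgr2b 8.60% occur in another gene, and 4.96% occur in Fcgr3. The shares in any other gene were 6.70% for Cd300lf, 3.89% for Cd300ld and 3.59% for Cd300a. Of the words of Fcgr1, Fcgr4, Fcer1g and Cd300lb, 0 occur elsewhere. How reads from shared stretches were divided is not stated, so the levels of Pirb and, to a lesser degree, of Fcgr2b and Fcgr3 are uncertain.

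Genes of the Pira group encode activating counterparts of Pirb that lack its ITIM and signal through the FcR gamma chain. The 6 listed under Pira symbols came to 150.6 FPKM in the control and 169 FPKM with ATPγS, and over Pirb to 1.14 and 1.25. Individual Pira genes went in different directions, with Pira2 at 37.4 and 27.7 FPKM, Pira6 at 22.6 and 42.1 FPKM and Pira4 listed at 0 without and at 5.74 FPKM with ATPγS. These genes are near-identical, so the sum is given beside the single values.

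Among 18 other paired immunoglobulin-like receptor genes, 1 was higher by 2-fold or more on the log2(FPKM + 1) scale (Pira4) and 0 were lower by as much, with a median log2 ratio of 0.06. By FPKM alone Lilra5, of an activating receptor, was also past 2-fold (2.10 and 4.57 FPKM, 2.18-fold higher). The inhibitory receptor gene Lilrb4a was more abundant than any of the 10 genes, at 2141 and 2236 FPKM, and its relative Lilr4b stood at 892 and 923 FPKM. Siglece, of an inhibitory receptor for sialic acid, was at 191 and 164 FPKM, and Pilra, of another ITIM receptor, at 137 and 161 FPKM.

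Other Fc receptor genes spanned a wider range of ratios, at lower levels; whether that range differs from the one of the 10 genes was not tested. Of 12 averaging 1 FPKM or more, 1 was higher by 2-fold or more on the log2(FPKM + 1) scale and 3 were lower by as much, where 13.8% and 9.91% of all genes were, with a median log2 ratio of -0.04. Fcgrt, of the neonatal Fc receptor that recycles IgG inside cells, stood at 9.97 FPKM in the control and 32.7 FPKM with ATPγS, a 3.28-fold difference with a counting interval of 2.27 to 4.76. The lower ones were Fcer1a, of the IgE-binding chain of mast cells and basophils (12.5 and 2.67 FPKM, from about 27 and 8 reads), Fcer2a, of the low-affinity IgE receptor CD23 of B cells (29.8 and 12.5 FPKM), and Fcmr, of the IgM receptor (40.2 and 15.9 FPKM). By FPKM alone Fcrla, of an intracellular Fc receptor-like protein of B cells, was also past 2-fold (16.4 and 7.88 FPKM, 2.08-fold lower). Fcrl1, of a B cell receptor of the same superfamily, was at 14.1 and 18.99 FPKM. Of other CD300 genes, Cd300c stood at 6.09 FPKM in the control, about 9 reads, and was listed at 0 with ATPγS, and was the 1 of 3 genes past 2-fold. Cd300e (3.13 and 2.65 FPKM) and Cd300lg (1.67 and 3.29 FPKM) were low in both libraries, and Cd300lh was listed at 0 in both. Cd300lg lies outside the span of the 4 members, and Cd300c2, Cd300ld2, Cd300ld3, Cd300ld4 and Cd300ld5, which lie within it, were not analysed here.

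The signalling genes behind the activating receptors differed in both directions. Of 24 ITAM pathway genes, 1 was higher and 1 lower by 2-fold or more on that scale. Of all genes averaging 1 FPKM or more, 13.8% were higher and 9.91% lower by as much. The median log2 ratio was -0.13, the value of all genes averaging 10 FPKM or more. Counting intervals lay above 1 for 5 of the 24 genes and below 1 for 9. Of all genes with an estimate and a mean of 1 FPKM or more, 24.6% and 25.0% had such intervals. These counts are read as no result about the pathway. Tyrobp, the adaptor that Cd300lb uses, stood at 1886 and 2073 FPKM, above Fcer1g in both libraries. The GTPase gene Rac2 (380 and 363 FPKM) and the Src-family kinase gene Lyn (139 and 150.2 FPKM) were also among the abundant members. Plcg2, of a phospholipase C downstream of SYK, was 3.57-fold lower with ATPγS (25.8 and 7.23 FPKM, interval of the ratio 0.216 to 0.358, about 236 and 88 reads). Card9, of an adaptor to NF-κB, was higher at low level (1.81 and 4.85 FPKM, about 8 and 27 reads).

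Of 12 genes of the inhibitory pathway, 11 lay below 0 on the log2 scale, with a median of -0.19. All genes averaging 10 FPKM or more had a median of -0.13. When that median is set to 0, 9 of the 12 lay below 0 and the median of the list was -0.06. The share of all genes below 0 is not given here, so the count is read as no result about the pathway. By 2-fold or more on that scale 0 were higher and 1 lower, where 13.8% and 9.91% of all genes averaging 1 FPKM or more were. Ptpn6, of the phosphatase SHP-1, was the most abundant at 466 and 418 FPKM, and Ptprc, of the phosphatase CD45, stood at 198 and 173 FPKM. Inpp5d, of SHIP-1, which the ITIM of Fcgr2b recruits, was at 46.7 and 38.6 FPKM (ratio 0.827, interval 0.730 to 0.935), and Dok3, of an adaptor, at 105 and 96.8 FPKM. The 1 counted was Dok1, of a related adaptor, at 6.82 and 1.36 FPKM. By FPKM alone Pag1, of an adaptor for the kinase CSK, was also past 2-fold (7.33 and 3.44 FPKM, 2.14-fold lower, interval of the ratio 0.352 to 0.625).

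**Figure D4:**
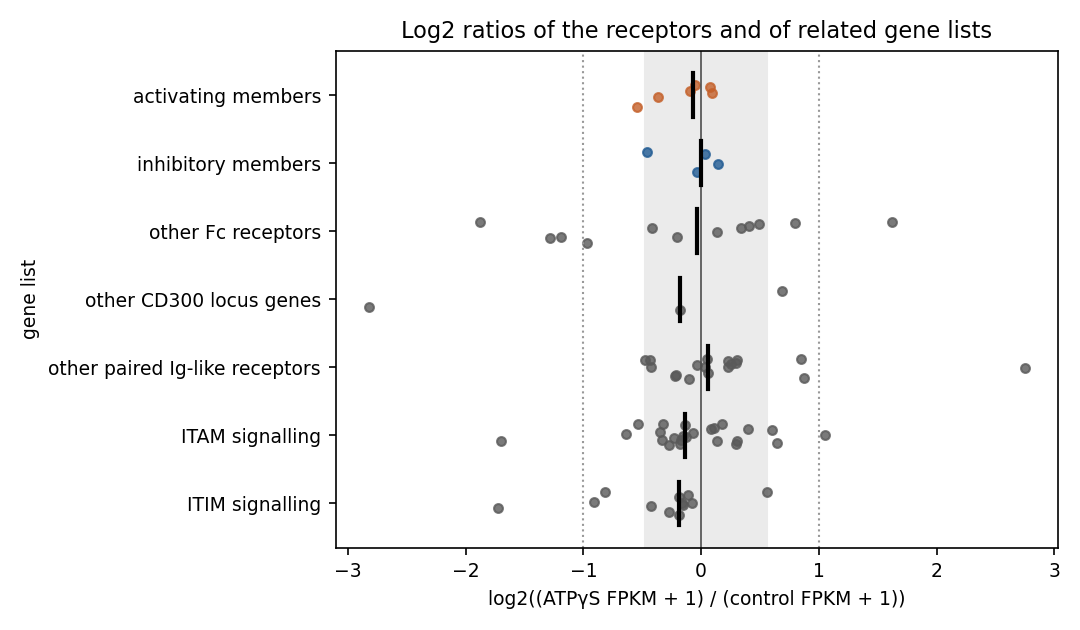
Log2 ratio of each gene averaging 1 FPKM or more in the 10 receptors (activating, inhibitory) and in 5 related lists, on the log2((ATPγS FPKM + 1) / (control FPKM + 1)) scale; black bars are medians, dotted lines 2-fold and the grey band the middle 50% of all genes at that minimum. The 10 receptors lie between -0.55 and 0.14, while the other Fc receptor genes run from -1.88 (Fcer1a) to 1.62 (Fcgrt).

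Markers of other cell types are given beside these differences. Fcgr2b is also expressed by B cells, and 8 of 10 B cell markers lay below 0 (7 after rescaling), with a median of -0.58 and a summed level of 1322 FPKM in the control and 932 FPKM with ATPγS. The most abundant were Jchain (930 and 643 FPKM) and Cd79a (133 and 85.9 FPKM), and none of the list was at 0 in both libraries. The B cell list includes Fcer2a and Fcrla, which are among the lower Fc receptor genes above, so it is not independent of them. In bulk RNA, fewer cells of a type and less RNA per cell cannot be told apart. Of 10 mast cell and basophil markers, 3 were lower, Fcer1a itself among them, and 1 higher by 2-fold or more on the log2(FPKM + 1) scale (sums of 78.0 and 59.5 FPKM). The most abundant of them were Kit (27.8 and 14.0 FPKM) and Prss34 (6.86 and 14.1 FPKM). By FPKM alone Prss34 (2.05-fold higher) and Gata2 (3.10-fold higher) were past 2-fold as well. Among 14 markers of T and NK cells, 6 were lower and 2 higher by 2-fold or more on the log2(FPKM + 1) scale (sums of 347 and 215 FPKM). Of all genes averaging 1 FPKM or more, 9.91% were lower and 13.8% higher by as much. The most abundant of the T and NK cell list were Gzma (45.8 and 66.1 FPKM), which is not among those counted, and Cd3g (76.5 and 19.4 FPKM), which is. For Fcgr4 and Fcgr1, 10 monocyte markers summed to 856 and 926 FPKM (median log2 ratio -0.10 with 6 of 10 below 0, and 0.03 with 5 of 10 after rescaling) and 18 macrophage and dendritic cell markers to 4449 and 4947 FPKM (median 0.19). The monocyte markers Ccr2 (ratio 0.601, interval 0.480 to 0.754), Cx3cr1 (0.424, 0.226 to 0.826) and Fn1 (0.807, 0.713 to 0.915), chosen after their values were seen, were lower, while the most abundant, Nr4a1 (315 and 364 FPKM) and Treml4 (198 and 239 FPKM), were higher. The most abundant of the macrophage and dendritic cell list were Cd74 (2647 and 2825 FPKM) and H2-Ab1 (545 and 643 FPKM). The 7 eosinophil markers averaging 1 FPKM or more had a median of -0.43, with 5 below 0 and 2 above (all 8 listed summed to 98.1 and 82.0 FPKM). The most abundant were Ccr3 at 41.5 and 30.4 FPKM and Siglecf at 19.3 and 13.6 FPKM. The 2 above 0 were Prg2 (5.22 and 7.38 FPKM) and Ear1 (5.08 and 14.1 FPKM, 2.78-fold higher, from about 8 and 29 reads). The 13 neutrophil markers had a median of 0.07. The part of these cell types in the values of Fcgr2b, Fcgr4 and Fcer1a was not tested.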

How the data were processed

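Cufflinks 2.2.1, SAMtools 0.1.19, Bowtie2 2.2.3 and TopHat2 2.0.13 are named in the submitters' processing notes, which give mm10 as the build. Annotation and options: not given in the sources used here. SMART-Seq HT cDNA was sequenced as Nextera libraries, per the labels' protocols; these do not mark strand, so overlapping antisense transcripts cannot be told apart. The deposited values are FPKM, 1 per symbol, and not counts; no count test was run.

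Log2 ratios used a pseudocount of 1 and so understate the difference of low genes; folds are ratios of FPKM without it. Counts of genes past 2-fold were made on the log2 ratios with the pseudocount, at a mean FPKM of at least 1, so some low genes with an FPKM ratio over 2 are not counted; those in the lists are given in the text for Fc receptor, paired receptor, ITIM, mast cell and basophil genes. Depth was estimated as the smallest number of fragments at which FPKM times coding length came nearest to whole reads in 1137 olfactory, vomeronasal and trace amine receptor genes. Of values under 10 reads, 69.6% (control) and 68.4% (ATPγS) were whole within 0.05, where chance gives 10%. Reads per gene then came from the longest coding transcript of GENCODE M21 (GRCm38, which is mm10), in which 95.7% of symbols were found, and are approximate. Intervals of a gene's ratio are 95% exact binomial (Clopper-Pearson), those of a level exact Poisson, and those of a ratio between genes a normal approximation on the log scale of Poisson error. The depth estimate, the recovery of genes past 2-fold and the intervals of single-gene ratios were tested on simulated data. The simulation drew Poisson reads with known transcript lengths, so it does not cover the choice of transcript. The other steps were not tested in this way.

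The ITIM was searched in translated GENCODE coding sequences (principal transcript) as a tyrosine with serine, isoleucine, valine or leucine before it by 2 residues and isoleucine, valine or leucine after it by 3. The ITAM was searched as a tyrosine followed after 2 residues by leucine or isoleucine, present 2 times with 6 to 12 residues between. The search began after the last window of 19 residues with a mean hydropathy of at least 1.6. Identity between the proteins was not computed here.

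All 10 genes are named. Of related lists, genes at least 2-fold apart and the 4 most abundant are named, and of marker lists of other cells the 2 most abundant (1 result of this rule is not reported here); Pira2, Pira6, Lilra5, Fcrla, Pag1, Gata2, Cd300e, Cd300lg, Inpp5d's ratio and the sort antigens are given beside them. The members, lists and thresholds were chosen with earlier results of these data known. Alternatives were other pseudocounts, rescalings, filters and thresholds, means, and leaving out Fcer1g or genes with near copies. Analyses used Python 3.11.15, numpy 2.4.6, pandas 2.3.3 and scipy 1.17.1.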

Additional observations from a re-analysis of the deposited data

How the results depend on the processing

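No paired analysis was possible because each group has 1 library, and leaving out a library was not possible for the same reason. Of 130 alternative values over 24 results, 115 stayed within the counting interval of the reported value or within 1.5 times the reported count. The number of members past the threshold was 0 under every pseudocount, rescaling and threshold tried. Rescaling to a median log2 ratio of 0 over genes averaging 10 FPKM or more, a shift of 0.13 by construction, moved the activating median to 0.059, the inhibitory median to 0.13, the median of the other paired immunoglobulin-like receptors to 0.19, and the log2 ratios of Fcer1g to 0.04, Cd300lb to 0.08 and Pirb to 0.17. Fcer1g, Cd300lb and Cd300a changed sign under a rescaling (Cd300a to 0.09); the other 7 members kept theirs. The mean of the other paired receptors was 0.22, above their median. The difference of activating and inhibitory medians was -0.07 as reported. It ran from -0.14 (without Pirb, Fcgr2b and Fcgr3) to -0.04 (without Pirb, an alternative added after seeing the data). It kept its sign, but its counting interval of -0.23 to 0.09 includes 0, so its direction is not settled.

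Counts over all genes, 2521 higher and 1815 lower, moved to 561 and 461 with a pseudocount of 5, to 740 and 894 at a mean FPKM of at least 5, to 4408 and 3782 at 1.5-fold and to 1154 and 611 at 3-fold, as fewer or more genes can pass by construction. None of the 4 other CD300 genes in the tables reached a mean FPKM of 5, so that setting gave no value for them. Depth limits Fcgr1 most, with about 21 and 20 reads.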
